A study of Mus musculus with 6 samples.

Results

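The genes described here encode proteins of the Z-disc and M-band of the muscle sarcomere and proteins that bind titin or cap the thin filament. They were chosen by name: 39 symbols were looked up in the gene column of the deposited table, and all 39 were found among its 25927 rows. The table compares gastrocnemius, a calf muscle in which fast fibres predominate, between wild-type (WT) mice and mice with a muscle-specific knock-out labelled MLL4SET-MKO, 3 libraries of each, all C57BL/6J and 8 weeks old. MLL4, the product of Kmt2d, methylates histone H3 at lysine 4 through its catalytic SET domain. The controls carry no knock-out by their label, and the Cre line that made the deletion muscle-specific is not stated in the sources used here. Each group has 1 FPKM value per gene, fragments scaled to transcript length and library size, so levels of different genes can be set side by side but the spread between mice cannot be shown.

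In the sarcomere, thin filaments of actin are anchored at the Z-disc, where alpha-actinin crosslinks them, and thick filaments of myosin are held in register at the M-band by myomesins. Titin spans from the Z-disc to the M-band. Many of the smaller Z-disc proteins exist as paralogs, and in rodent limb muscle Myoz2, Csrp3, Ankrd2, Pdlim1, Myom3 and Smpx are known mainly from slow or oxidative fibres and Myoz1, Myoz3 and Myom2 from fast fibres.

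Genes count as called where the q-value of the authors' deposited table is under 0.05. Of the 39 genes, 38 were tested, and all 38 had a mean of at least 1 FPKM. The exception was Nebl, the nebulin paralog of cardiac muscle, at 0.129 FPKM in WT and 0.14 FPKM in MLL4SET-MKO. Of the 38, 8 were called lower and 2 higher in MLL4SET-MKO. These 10 are 26.3% of the members tested, against 11.8% of the 13347 rows tested in the whole table. Of all rows, 7.41% were called lower and 4.44% higher. Most members lie between 20 and 1000 FPKM in WT, where 16.6% to 17.9% of rows were called. The members were chosen with earlier results of these data known, so these counts are a description. The 8 that fell were Xirp1, Csrp3, Myom3, Myoz2, Ankrd2, Pdlim1, Actn2 and Flnc, and the 2 that rose were Igfn1 and Myoz3. The median log2 ratio of the 38 was -0.19, beside -0.04 over the 11271 tested rows with a mean of at least 1 FPKM. A lower value in MLL4SET-MKO was found for 27 of the 38 (71.1%), beside 56.0% of those rows.

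Kmt2d itself stood at 8.77 FPKM in WT and 5.65 FPKM in MLL4SET-MKO, with a q of 0.000903 in the authors' deposited table, and none of the 39 genes lies on its chromosome, 15. Fibre markers were high in both groups. Parvalbumin (Pvalb) had 8942 FPKM in WT and 8270.2 FPKM in MLL4SET-MKO, and the fast myosin Myh2 had 428 FPKM and 369 FPKM. Values went the other way for Mb, at 1840 FPKM and 2299 FPKM, and for Myh1, at 692 FPKM and 772 FPKM. None of these 4 tested markers was called. The estimates of Myh4, Ckm, Acta1, Tnnt3 and Ttn failed, so titin is not described. The calls depend on how the authors' p-values were formed. A stricter reading takes the authors' test statistic itself as a standard normal deviate, with Benjamini-Hochberg adjustment over all tested rows. It called 3.27% of rows (1.96% lower and 1.32% higher). The call of Kmt2d was lost (q = 0.13), and 5 of the 8 lower members and 1 of the 2 higher ones remained: Xirp1, Csrp3, Myom3, Myoz2, Ankrd2 and Igfn1. Intervals below are 95% intervals worked back from that statistic and the authors' p-values. They rest on the authors' model of the spread. Where a pair of FPKM values is given, WT comes first.

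**Figure D1:**
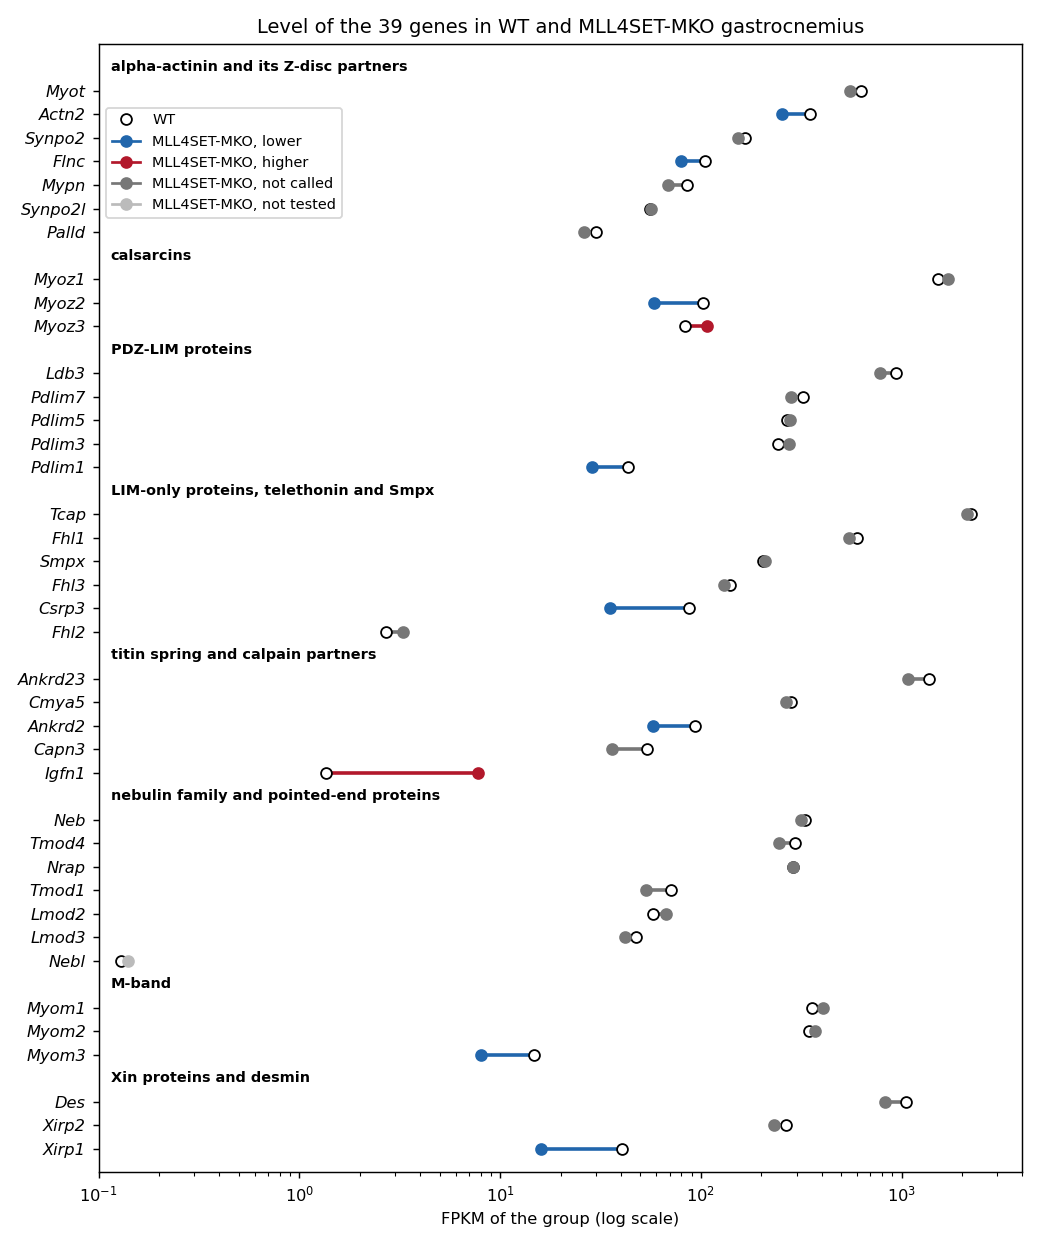
FPKM of the 39 genes in WT (open circles) and MLL4SET-MKO (filled circles) on a log axis, grouped by role and coloured by the call. The shift of Xirp1 from 40.5 to 15.9 FPKM and that of Igfn1 from 1.36 to 7.76 FPKM are the widest among called genes.

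Promoter windows show what stands in front of genes that moved and of neighbours or paralogs that were not called. RefSeq windows on GRCm38.p6, the same build as mm10, were matched by symbol for 31 of the 39 genes. The 8 without a window are Xirp1, Myoz1, Myoz3, Myom2, Myot, Tcap, Neb and Lmod3. There were 45 windows, since some genes have several starts, and each runs from 250 bases before to 50 after a start. The windows below belong to Myoz2 (chr3:123034938-123035237, minus strand), its uncalled neighbour Synpo2 (chr3:123236100-123236399, minus), Flnc (chr6:29432903-29433202, plus), Xirp2, the uncalled paralog of Xirp1 (chr2:67445752-67446051, plus), Csrp3 (chr7:48848002-48848301, minus) and Igfn1 (chr1:136006293-136006592, minus). Capitals mark a match to a loose pattern for the site bound by MEF2 factors, CTA and TAG with any 4 bases between them, on either strand. In Myoz2, Synpo2 and Xirp2 the middle bases are all A or T. In Flnc they are AGAC, so that match is a weaker one.
Myoz2: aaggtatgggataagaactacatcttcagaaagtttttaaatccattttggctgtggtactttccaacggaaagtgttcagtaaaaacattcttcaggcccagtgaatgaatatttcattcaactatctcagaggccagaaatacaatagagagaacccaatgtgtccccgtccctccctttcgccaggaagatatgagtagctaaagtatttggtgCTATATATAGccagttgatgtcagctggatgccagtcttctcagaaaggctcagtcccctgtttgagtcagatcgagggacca
Synpo2: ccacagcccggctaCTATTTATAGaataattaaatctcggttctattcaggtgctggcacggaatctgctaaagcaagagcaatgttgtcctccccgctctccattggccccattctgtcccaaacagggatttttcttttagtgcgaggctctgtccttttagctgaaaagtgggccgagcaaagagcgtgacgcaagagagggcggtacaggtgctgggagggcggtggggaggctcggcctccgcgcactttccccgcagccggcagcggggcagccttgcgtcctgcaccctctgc
Flnc: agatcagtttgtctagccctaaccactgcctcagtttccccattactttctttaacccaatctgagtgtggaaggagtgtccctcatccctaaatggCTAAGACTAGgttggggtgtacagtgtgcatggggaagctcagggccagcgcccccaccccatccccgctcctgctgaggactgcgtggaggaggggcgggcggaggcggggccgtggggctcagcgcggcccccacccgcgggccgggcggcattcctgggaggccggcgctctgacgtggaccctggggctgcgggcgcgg
Xirp2: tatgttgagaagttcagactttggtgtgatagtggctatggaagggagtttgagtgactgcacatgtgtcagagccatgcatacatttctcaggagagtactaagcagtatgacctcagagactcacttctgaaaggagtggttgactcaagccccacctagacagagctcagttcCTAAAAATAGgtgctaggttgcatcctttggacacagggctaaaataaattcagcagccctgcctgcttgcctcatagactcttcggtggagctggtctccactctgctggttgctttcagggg
Csrp3: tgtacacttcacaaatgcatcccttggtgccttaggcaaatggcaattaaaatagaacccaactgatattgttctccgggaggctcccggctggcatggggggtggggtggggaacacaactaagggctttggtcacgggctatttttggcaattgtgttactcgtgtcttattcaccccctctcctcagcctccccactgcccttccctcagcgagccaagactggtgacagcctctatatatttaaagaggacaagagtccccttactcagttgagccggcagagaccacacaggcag
Igfn1: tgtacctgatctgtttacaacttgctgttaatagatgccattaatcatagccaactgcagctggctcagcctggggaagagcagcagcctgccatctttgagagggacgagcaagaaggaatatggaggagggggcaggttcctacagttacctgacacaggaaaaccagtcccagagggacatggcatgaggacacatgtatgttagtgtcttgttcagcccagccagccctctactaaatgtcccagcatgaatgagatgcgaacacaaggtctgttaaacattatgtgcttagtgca

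The match lies 33 bases before the start in Myoz2, 236 in Synpo2, 153 in Flnc and 74 in Xirp2. In Myoz2 it also holds the letters TATATA of a TATA box, and none of the matches in the 45 windows overlapped the other motifs searched. The windows shown of Csrp3 and Igfn1 hold no match, and neither does the other window of Flnc. Among the 31 genes, 9 had at least 1 such match, in 10 of 45 windows (22.2%), against 3.69% of all 32851 windows. The 9 were Capn3, Des, Flnc, Ldb3, Myoz2, Smpx, Synpo2, Synpo2l and Xirp2, and the 2 windows of Ldb3 share their site. They were split over the calls: 2 of the 7 lower genes with a window held a match, as did 7 of the 22 genes not called. The SRF site known as the CArG box stood in 7 of 45 windows (15.6%) against 1.63% of all windows. The genes were Fhl1, Fhl2, Ldb3 and Myom1, which were not called, and Nebl, which was not tested. Here too the 2 windows of Ldb3 share their site. The E-box CANNTG (71.1% against 72.3%) and the MCAT motif CATTCC (20% against 14.7%), both searched on both strands, were about as frequent as among all windows. A match is only a run of letters and does not show binding.

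Of the 7 genes of alpha-actinin and its Z-disc partners, 2 were called, both lower, where 7.41% of all rows were called lower. Actn2, the alpha-actinin of all fibre types that crosslinks actin at the Z-disc, fell from 350.6 to 255 FPKM (log2 ratio -0.46, interval -0.71 to -0.21, q = 0.00682 in the authors' deposited table). Its row spans chromosome 13, 12269427 to 12340732, and the gene is on the minus strand. Flnc encodes the muscle filamin that crosslinks actin at Z-discs and at the membrane. Its row spans chromosome 6, 29428607 to 29461888, and GENCODE starts the gene, on the plus strand, at 29433256. Flnc fell from 104.8 to 79.3 FPKM (log2 ratio -0.40, interval -0.66 to -0.15, q = 0.0196 in the authors' deposited table). Both calls were lost under the stricter reading. The 3 relatives with immunoglobulin domains that bind alpha-actinin were not called: Myot (myotilin) had 630.1 FPKM and 552 FPKM, Mypn (myopalladin) 85.5 FPKM and 69.0 FPKM and Palld (palladin) 29.9 FPKM and 26.1 FPKM in WT and knock-out. The synaptopodin genes Synpo2 and Synpo2l, whose proteins bind alpha-actinin and filamin, had log2 ratios of -0.12 and 0.02.

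The calsarcins, which tie alpha-actinin, filamin and telethonin to the phosphatase calcineurin, moved in opposite directions. Myoz2, the calsarcin of slow and cardiac muscle (chromosome 3, 123006206 to 123034987, minus strand), fell from 102.9 FPKM in WT to 58.3 FPKM (log2 ratio -0.82, interval -1.08 to -0.57, q = 0.000903 in the authors' deposited table). Myoz3, a fast-fibre calsarcin on chromosome 18, rose from 83.5 FPKM to 106.7 FPKM (log2 ratio 0.35, interval 0.11 to 0.60). Its q of 0.0483 in the authors' deposited table is just under the threshold, and the call was lost under the stricter reading. Myoz1, the main fast calsarcin, stood at 1521 and 1711 FPKM and was not called (log2 ratio 0.17, interval -0.10 to 0.44). The interval of Myoz2 overlaps neither of these. Myoz2 was above Myoz3 in WT and below it in MLL4SET-MKO, and its share of the summed calsarcin FPKM went from 6.03% to 3.11%. Synpo2, whose locus lies 41.5 kb from that of Myoz2 on the same strand, stood at 166.6 and 153 FPKM and was not called.

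PDZ-LIM proteins bind alpha-actinin through a PDZ domain and carry LIM domains. Of their 5 genes here, beside 11.8% of all rows called in either direction, only Pdlim1 was called. It fell from 43.3 to 28.5 FPKM (chromosome 19, 40222239 to 40271616, minus strand; log2 ratio -0.60, interval -0.86 to -0.34, q = 0.000903 in the authors' deposited table). Under the stricter reading this call was lost (q = 0.18). Its share of the family's FPKM went from 2.38% to 1.74%. Ldb3, also called ZASP or Cypher, makes up most of the family's FPKM together with Pdlim7 and stood at 941 and 784 FPKM. The log2 ratios of the 4 others lay between -0.26 (Ldb3) and 0.17 (Pdlim3).

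Of the 6 genes of LIM-only proteins, telethonin and Smpx, only Csrp3 was called, where 11.8% of all rows were called and 7.41% called lower. Csrp3 had the second largest decrease of the 38 genes. It encodes muscle LIM protein, a Z-disc and nuclear protein of stretch sensing, and lies on chromosome 7, 48830398 to 48848051, minus strand. It fell from 87.4 to 35.2 FPKM, which is 40.3% of the WT level (log2 ratio -1.31, interval -1.58 to -1.05, q = 0.000903 in the authors' deposited table). Tcap, or telethonin, the cap of titin's end in the Z-disc, had the highest level of the 39 genes in both groups, 2206 and 2110.5 FPKM, with a log2 ratio of -0.06 (interval -0.33 to 0.20). The LIM-only genes Fhl1 and Fhl3 stood at 91.9% and 93.8% of WT, and Fhl2, known mainly from heart, at 2.70 and 3.26 FPKM. Smpx, a small protein of striated muscle that is richer in slow muscle, was not called, at 205 and 209 FPKM (log2 ratio 0.03, interval -0.22 to 0.28).

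**Figure D2:**
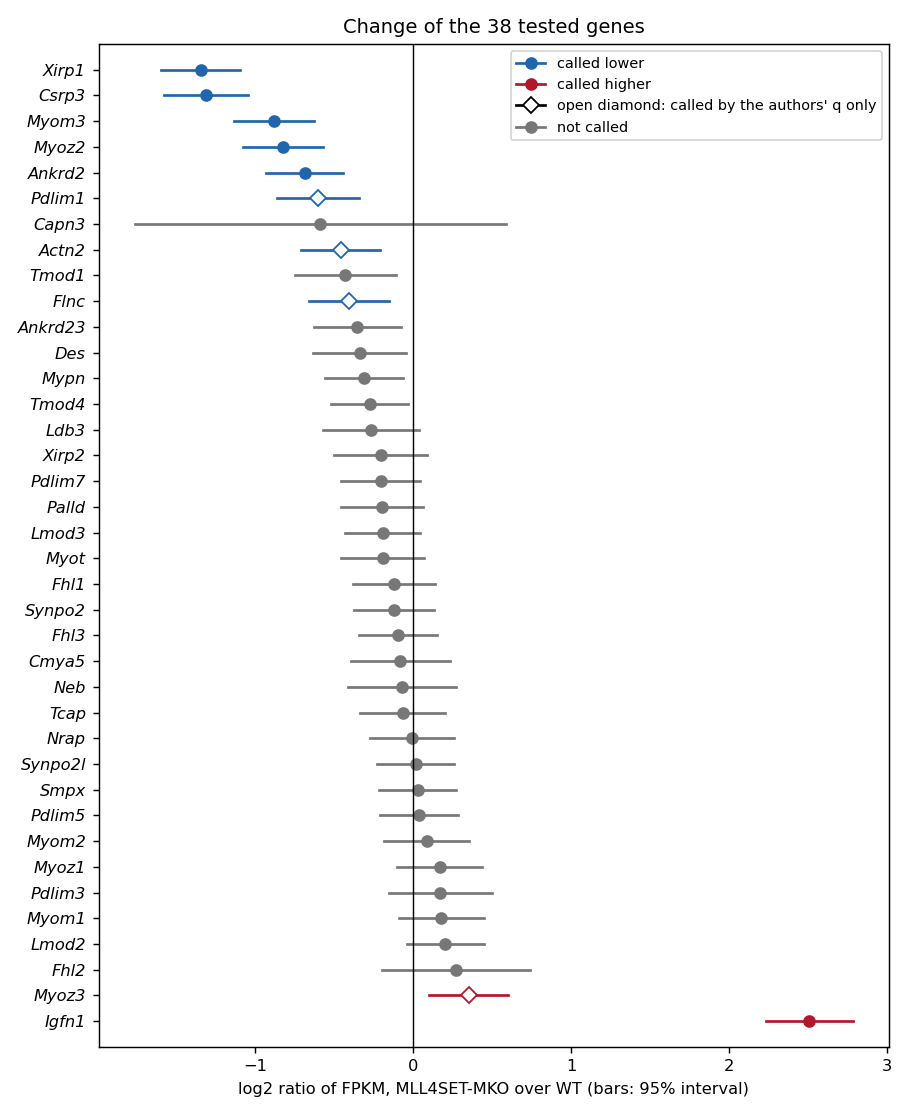
log2 ratio of FPKM, MLL4SET-MKO over WT, for the 38 tested genes in order of the ratio, with 95% intervals. Open diamonds mark calls lost under the stricter reading, and the interval of Capn3 is wider than those of the other genes.

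Of the 5 genes grouped here as partners of titin's spring and of calpain, 1 rose and 1 fell. Over all rows, 4.44% were called higher and 7.41% lower. The rise was the largest of the 38 genes, in a gene whose protein is placed at the Z-disc. Igfn1, a protein of immunoglobulin and fibronectin type III domains (chromosome 1, 135953223 to 136006342, minus strand), rose from 1.36 to 7.76 FPKM, 5.69-fold (log2 ratio 2.51, interval 2.23 to 2.79, q = 0.000903 in the authors' deposited table). It remained in MLL4SET-MKO below all other tested members except Fhl2. With a pseudocount of 1 FPKM the log2 ratio of Igfn1 was 1.89. Ankrd2, a stretch-responsive ankyrin repeat protein that binds the spring region of titin and is richer in slow fibres, fell from 93.2 to 58.0 FPKM (chromosome 19, 42036038 to 42045110, plus strand; log2 ratio -0.69, interval -0.93 to -0.44). Its paralog Ankrd23 shares a row with Ankrd39, so the value is that of both genes: 1374 and 1075 FPKM, not called (log2 ratio -0.35, interval -0.63 to -0.08, q = 0.0798 in the authors' deposited table). Capn3, the muscle calpain anchored on titin, had 54.0 and 35.9 FPKM, but its locus is shared with Ganc, Tmem87a, Zfp106 and 4931402G19Rik and the interval ran from -1.76 to 0.59. Cmya5, or myospryn, stood at 281 and 266 FPKM, at a locus shared with A630019I02Rik and Gm4814.

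None of the 6 tested genes of the nebulin family and of pointed-end proteins was called, where 11.8% of all rows were. Neb, the ruler-like protein along the thin filament, stood at 332 and 316 FPKM, and Nrap, a nebulin-related protein of myofibril assembly, at 288 and 287 FPKM. The leiomodins Lmod2 and Lmod3, which start and lengthen thin filaments, had values of 58.1 and 67.0 FPKM and of 47.8 and 41.8 FPKM. Of the tropomodulins, which cap pointed ends, Tmod4 was at 295.6 and 244 FPKM and Tmod1 at 71.3 and 53.0 FPKM. Tmod1 was the uncalled member nearest the threshold (q = 0.0702 in the authors' deposited table, log2 ratio -0.43), at a locus shared with Tstd2.

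At the M-band, the minor myomesin fell and the 2 major ones were not called, where 7.41% of all rows were called lower. Myom3, the myomesin of slow and intermediate fibres (chromosome 4, 135759715 to 135815567, plus strand), fell from 14.8 FPKM in WT to 8.04 FPKM (log2 ratio -0.88, interval -1.13 to -0.63, q = 0.000903 in the authors' deposited table). Myom1, found in all fibres, stood at 358 and 405 FPKM, and Myom2, or M-protein, of fast fibres at 347 and 368 FPKM, with intervals of -0.09 to 0.45 and -0.18 to 0.36. Myom3 thus went from 2.06% to 1.03% of the summed myomesin FPKM.

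The largest decrease of the 38 genes was that of Xirp1. It encodes Xin, an actin-binding repeat protein of fibre ends and of damaged or remodelling fibres, on chromosome 9, 120013714 to 120023629, minus strand, where GENCODE also places part of Cx3cr1 on the same strand. It fell from 40.5 to 15.9 FPKM, 39.4% of WT (log2 ratio -1.34, interval -1.59 to -1.10, q = 0.000903 in the authors' deposited table). Its larger paralog Xirp2 stood at 265 and 230.2 FPKM and was not called (log2 ratio -0.21, interval -0.50 to 0.09), so the share of Xirp1 in the pair's FPKM went from 13.2% to 6.47%. Des, the desmin filament that links Z-discs of neighbouring myofibrils, is in a row shared with Speg, at 1049 and 829.99 FPKM (log2 ratio -0.34, q = 0.14 in the authors' deposited table).

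**Figure D3:**
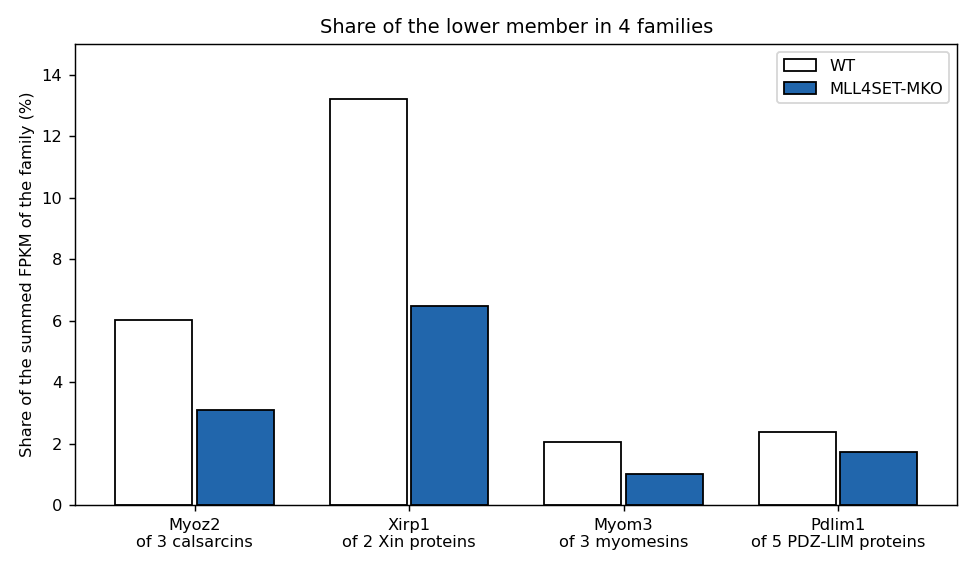
Share of Myoz2, Xirp1, Myom3 and Pdlim1 in the summed FPKM of their families, in % from 0, in WT (white bars) and MLL4SET-MKO (blue bars), with 1 value per group and no error. Myoz2 went from 6.03% to 3.11% and Xirp1 from 13.2% to 6.47%.

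Sorted by fibre type, most slow-enriched members fell and no fast-enriched member did. Of the 6, 5 were called lower (Csrp3, Myom3, Myoz2, Ankrd2 and Pdlim1) and Smpx was not, with a median log2 ratio of -0.75, beside -0.04 over all measured rows and 7.41% of all rows called lower. Of the 3 fast-enriched members, 1 was called higher, where 4.44% of all rows were, and all 3 had values above WT (median 0.17). Of the 29 tested members on neither list, 3 were called lower (Actn2, Flnc and Xirp1) and 1 higher, with a median of -0.19. Under the stricter reading 4 of the 6 slow-enriched members, none of the 3 fast-enriched ones and 2 of the 29 others (Xirp1 and Igfn1) were called. Of all rows, that reading called 1.96% lower and 1.32% higher. The fibre lists were drawn up with earlier results of these data known, so these counts are a description. Beside them, 7 slow contractile genes (Myh7, Myl2, Myl3, Tnnt1, Tnnc1, Tnni1 and Tpm3) were all called lower, with log2 ratios from -2.48 to -0.93 and a median of -2.12. The 5 slow-enriched members that fell had log2 ratios from -1.31 to -0.60, and the interval of Csrp3 (-1.58 to -1.05) lies above the median of the contractile genes. In whole muscle, fewer slow fibres and less of a transcript in each fibre cannot be told apart.

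**Figure D4:**
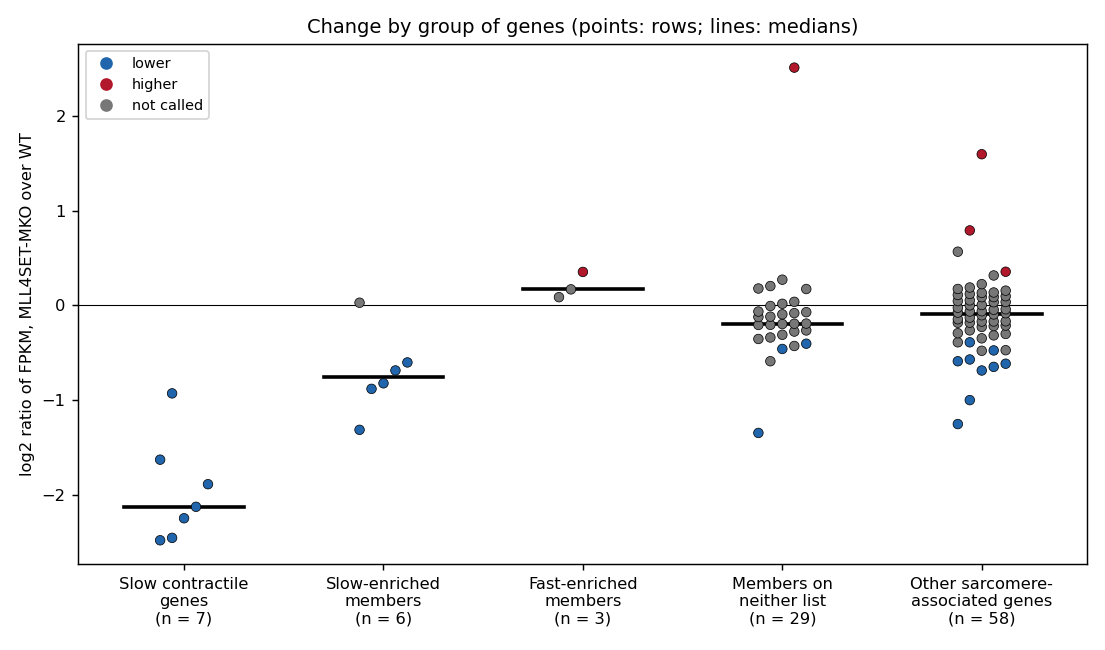
log2 ratio of FPKM, MLL4SET-MKO over WT, for 7 slow contractile genes, the members by fibre list and other sarcomere-associated genes, 1 point per measured row, with lines at the medians. The median was -2.12 for slow contractile genes and -0.75 for slow-enriched members.

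Calls were also counted by WT level. Tcap, Myoz1, Ankrd23 and Des reached 1000 FPKM or more, and none of these 4 was called, which is near the 4.65% of all rows called in that range. Of 8 members between 300 and 1000 FPKM only Actn2 was called, of 11 between 100 and 300 FPKM Flnc and Myoz2, and of 12 between 20 and 100 FPKM 4 were called lower and 1 higher. In these 3 ranges 16.9%, 17.9% and 16.6% of all rows were called. Of the 3 members between 1 and 20 FPKM, Myom3 was called lower, Igfn1 higher and Fhl2 not, in a range where 10.2% of rows were called. The order of levels was nearly the same in both groups (Spearman rho 0.98 over 38 genes, which share the libraries). The log2 ratio had a rho of 0.12 with WT level and 0.01 with transcript length, as a description across genes. Of the 28 uncalled genes, 23 had an interval that lay within a 1.5-fold change either way. The others were Fhl2, Tmod1, Capn3, Des and Ankrd23. The interval of 5 uncalled genes, Mypn, Tmod1, Tmod4, Des and Ankrd23, lay below 0. All these intervals follow the authors' p-values. Under the stricter reading they would be 1.73 times as wide, and fewer genes would stay within 1.5-fold.

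**Figure D5:**
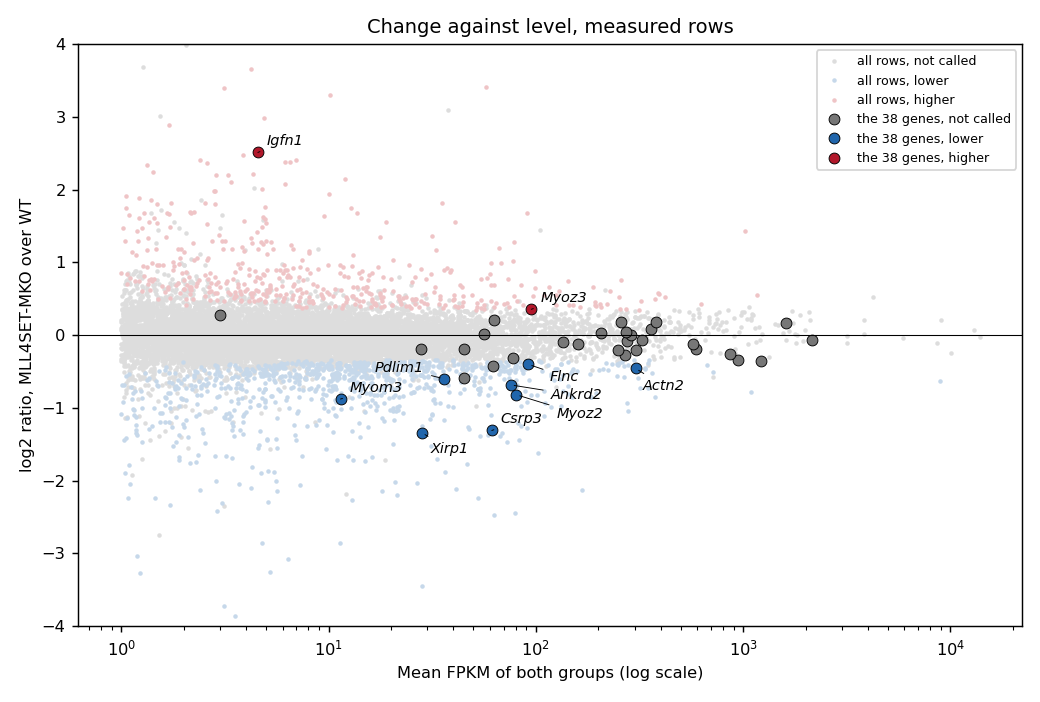
log2 ratio, MLL4SET-MKO over WT, against the mean FPKM of both groups (log axis) for all measured rows (pale points) and the 38 genes (large points, called genes named), with 7 rows beyond the axis. Igfn1 lies at 2.51, Xirp1 at -1.34 and Csrp3 at -1.31.

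Other genes of the sarcomere's scaffold were counted from a further list of 61 symbols, of which 58 were tested in rows of their own. Of these, 9 were called lower and 3 higher (12 of 63 rows, since Sorbs2 has several, or 19.0%), with a median log2 ratio of -0.09. Over all tested rows, 11.8% were called, 7.41% lower and 4.44% higher, and the median of measured rows was -0.04. The largest called change was that of Ankrd1, the cardiac and stretch-responsive paralog of Ankrd2 and Ankrd23, which rose from 2.45 to 7.42 FPKM (log2 ratio 1.60) while Ankrd2 fell. Mybph, a myosin-binding protein, fell from 119.5 FPKM in WT to 50.2 FPKM, and Fhod1, a formin that assembles actin, from 14.01 FPKM to 7.02 FPKM. Klhl40, which stabilises nebulin and Lmod3, fell from 62.2 FPKM in WT to 38.7 FPKM, and Lmod1, the leiomodin of smooth muscle, from 2.07 FPKM to 1.32 FPKM. Mybph lies in a locus with Adora1, Fhod1 with Tmem208 and Klhl40 with Hhatl. A row of Sorbs2, a Z-disc adaptor, rose from 13.4 to 23.2 FPKM. Under the stricter reading, 3 of the 12 calls remained: Ankrd1, Mybph and Fhod1. On that reading 3.27% of all rows were called. Actn3, the alpha-actinin of fast fibres, stood at 3291 and 3064 FPKM and was not called (log2 ratio -0.10).

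Some of these proteins are also made outside skeletal fibres, among them palladin and the product of Synpo2 in smooth muscle. The marker counts below stand beside 7.41% of all rows called lower and 4.44% called higher. Of 9 smooth muscle markers, 2 were called lower (Smtn and Lmod1), and their summed level was 104 FPKM in WT and 88.8 FPKM in MLL4SET-MKO, with Acta2 at 24.2 and 22.7 and Myh11 at 7.23 and 6.97 FPKM. Of 8 macrophage markers 5 were called higher (Lyz2, Csf1r, C1qa, C1qb and C1qc), with a sum of 95.2 FPKM in WT and 153 FPKM in MLL4SET-MKO. Of 8 cardiac markers, the 2 tested, Tnnt2 and Myl4, which developing fibres also express, were called higher, at 1.49 and 2.53 FPKM and at 4.65 and 14.4 FPKM, and they make up nearly all of the sum of 6.76 and 17.4 FPKM. The other 6 were not tested: Myl7, Mybpc3 and Nppb were listed at 0 in WT and at no more than 0.038 FPKM in MLL4SET-MKO, Myh6 had 0.35 and 0.196 FPKM, Nppa 0.151 and 0.0407 FPKM and Tnni3 0.114 and 0.154 FPKM. Under the stricter reading Smtn, Lyz2 and Myl4 were the marker calls that remained. On that reading 1.96% of all rows were called lower and 1.32% higher. None of 6 fibroblast and 6 endothelial markers was called (sums of 798 and 838 FPKM, and of 97.2 and 93.7 FPKM). The part of these cells in the members' values was not tested.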

How the data were processed

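RNA of gastrocnemius from 3 WT and 3 MLL4SET-MKO mice was sequenced; the labels call the libraries biological replicates. Per the submitters' processing notes, TopHat2 2.0.14 and Cufflinks 2.2.1 were used with mm10, beside bcl2fastq and FastQC 0.11.3. The table has the Cuffdiff layout, per the file headers. It holds the FPKM that the authors gave each group, a test statistic used as a score from the authors' deposited table, and the deposited p-value and q-value. The annotation release, the use of strand and the scaling of libraries are not stated in the sources used here. Reads of overlapping genes cannot be separated, and depth is unknown. No column of single libraries was used, so no test across mice was run.

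The members and all lists were chosen with earlier results of these data known. All 39 members are named; other scaffold genes are named by the 6 largest called changes. Of the promoter windows meant to be shown, 6 are printed. Of 25927 rows, 13347 were tested and 11 had failed estimates. Ratios are MLL4SET-MKO FPKM over WT FPKM with no pseudocount, for tested rows. The authors' p-values corresponded to 1.73 times their statistic as a normal deviate (median of 11579 rows), which gave the standard errors. Benjamini-Hochberg adjustment of the deposited p-values matched the deposited q within 7.2e-05. For 20 tested rows whose statistic was error text, the authors' p stood in. Python 3.11.15, pandas 2.3.3 and scipy 1.17.1 were used. The scaling of the statistic, the standard errors and the adjustment were tried on simulated data built with that same form of scaling. The other steps were not tested in that way. Starts count from 1, and strands and overlaps come from GENCODE on GRCm38. Positions given beside called genes are those of their rows, which can differ from the gene.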

Additional observations from a re-analysis of the deposited data

How the results depend on the processing

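Of the 8 members called lower, 7 remained at q under 0.01 (5.05% of all rows called lower), 6 with a change of at least 1.5-fold (4.23%), and 8 both with adjustment over rows of at least 1 FPKM (7.94%) and among single-symbol rows with an unshared locus (8.01%). Under the stricter reading of the test statistic 5 remained (1.96%): Pdlim1, Actn2 and Flnc were lost. Of the 2 called higher, only Igfn1 remained at q under 0.01 (2.8% of all rows called higher). It also remained with a change of at least 1.5-fold (3.16%) and under the stricter reading (1.32%). The test statistic of Myoz3 was 1.60, which gave an adjusted q of 0.88 on that reading. The median log2 ratio of the members stayed between -0.19 and -0.15 under a pseudocount of 1 FPKM, no minimum level, a minimum of 5 FPKM, centring on all measured rows, equal FPKM totals and unshared loci only (30 members). Centring or equal totals turned the sign of 1 member, Nrap, which was not called. Leaving out each replicate was not run: the table used has 1 value per group of 3 libraries, and other processed files named in the labels were not used here. No paired analysis was possible because the deposited columns hold group values and no replicate numbers. With 1 value per group, the spread between mice is known only through the authors' p-values, whose smallest value, 5e-05, is shared by 739 rows and so does not rank the strongest calls.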

Other observations

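Several members lie over other transcribed rows, and how fragments were divided between them is not stated in the sources used here. A630019I02Rik, on the strand opposite to Cmya5, was listed at 262 FPKM in WT and 215 FPKM in MLL4SET-MKO, close to the 281 and 266 FPKM of Cmya5 itself, and neither was called. Tstd2, on the strand opposite to Tmod1, stood at 51.9 and 36.1 FPKM (log2 ratio -0.52, q = 0.0657 in the authors' deposited table), beside a log2 ratio of -0.43 for Tmod1. In the locus of Capn3, Ganc and Tmem87a had higher values in MLL4SET-MKO (log2 ratios 0.60 and 0.54) while Capn3 had a lower one (-0.59), and none of these was called. Of the 10 called members, none shares its row or locus with another row of the table.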
